A study of Mus musculus with 8 samples.

Results

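The genes described here are 32 genes of the unfolded protein response and of protein folding in the endoplasmic reticulum (ER), chosen by name for what their products do. All 32 were measured, among 18604 genes tested. The data were 8 one-colour Agilent microarrays of mouse peritoneal macrophage RNA, 4 labelled wt (wild type) and 4 labelled Card9-/-. Card9 is an adaptor protein that carries signals from receptors for fungal cell walls, and zymosan is a particle made from yeast cell wall. The title of the series names zymosan peritonitis and autophagy as its subject, and the design sets the genotypes side by side under 1 treatment.

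Every array came from mice given 1 ml of 3% thioglycolate into the peritoneum, an irritant that draws in macrophages, with the cells taken on day 4, freed of red cells and kept for their adherence after 3 h. Both groups were treated with zymosan at 500 mg/kg for 4 h, so each value below is a level in zymosan-treated mice, and no untreated group was analysed here. The labels give neither strain, sex, age nor the construction of the Card9 allele. They speak of pellets from 4 or 5 mice per group, so whether an array holds 1 mouse or a pool is not stated, and p-values measure the spread between these 8 arrays.

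Proteins that enter the ER are folded there by chaperones, trimmed and read by lectins, and joined by disulphide bonds. When unfolded protein accumulates, the chaperone BiP leaves the sensors IRE1, PERK and ATF6. IRE1 splices Xbp1 mRNA, ATF6 is cut to release a transcription factor, and PERK slows translation while favouring that of ATF4. These factors raise chaperones, enzymes of folding, and the machinery that returns misfolded protein to the cytosol for degradation, called ERAD. Macrophages that secrete cytokines rely on this system, and Toll-like receptor ligands are known to engage the IRE1 arm.

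The factors of this response read short promoter motifs, and these are shown first because they group the genes by the factors known to read them. The ER stress response element (ERSE), read by ATF6 with the factor NF-Y and also by XBP1, was searched as CCAAT, 9 bases, then CCACG. ERSE-II was searched as ATTGG, 1 base, then CCACG, the XBP1 site called UPRE as TGACGTGG, and the ATF4 and CHOP site called CARE as TGATG, 1 base, then AA, all on both strands. The windows ran from 250 bases before to 50 bases after the start of transcription in RefSeq (GRCm38.p6), in which 28 of the 32 genes matched and Hyou1, Manf, Derl1 and Atf6 did not. ERSE stood in 9 of the 28, against 0.137% of 27025 genes (37 genes). ERSE-II stood in 2, Dnajb11 and Herpud1, against 0.0444% of genes, and CARE in 4, Asns, Chac1, Herpud1 and Trib3, against 4.51%. UPRE stood in 0 of the 28, against 0.714% of genes. In all, 14 of the 28 held a motif, against 5.35% of genes, and no matches of these genes overlapped. Many of these genes are textbook targets through these elements, so the counts describe the choice of genes, and a match is not evidence of binding. The sequences below run 5′ to 3′ on the strand of the gene, with the matched bases in capitals. An element that faces the other way reads CGTGG, 9 bases, ATTGG.
Hspa5, chr2:34772015-34772053, + strand: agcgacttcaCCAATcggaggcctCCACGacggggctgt
Hsp90b1, chr10:86705523-86705666, - strand: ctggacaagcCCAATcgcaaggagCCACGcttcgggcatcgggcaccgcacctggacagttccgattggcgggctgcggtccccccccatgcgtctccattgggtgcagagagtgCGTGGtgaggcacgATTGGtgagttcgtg
Pdia6, chr12:17266481-17266519, + strand: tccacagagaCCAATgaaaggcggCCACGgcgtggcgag
Canx, chr11:50325790-50325828, - strand: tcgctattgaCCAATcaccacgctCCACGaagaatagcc
Calr, chr8:84847065-84847103, - strand: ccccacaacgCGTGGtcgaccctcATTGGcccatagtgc
Creld2, chr15:88819510-88819548, + strand: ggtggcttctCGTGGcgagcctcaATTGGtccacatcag
Dnajc3, chr14:118937817-118937855, + strand: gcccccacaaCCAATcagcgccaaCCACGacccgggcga
Syvn1, chr19:6046522-6046560, + strand: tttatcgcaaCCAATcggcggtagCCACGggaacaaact
Derl3, chr10:75893232-75893270, + strand: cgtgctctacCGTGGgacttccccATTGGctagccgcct
Herpud1, with CARE reversed and then ERSE-II, chr8:94386307-94386397, + strand: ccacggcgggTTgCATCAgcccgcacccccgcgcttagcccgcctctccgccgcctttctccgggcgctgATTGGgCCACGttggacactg
Asns, with CARE, chr6:7693215-7693242, - strand: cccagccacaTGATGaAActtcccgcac
Chac1, with CARE reversed, chr2:119351039-119351066, + strand: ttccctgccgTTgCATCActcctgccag

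The 10 ERSE matches in 9 genes lay upstream of the start (position 0), between positions -212 in Hsp90b1, the only gene here with 2, and -26 in Syvn1. The ERSE of Hspa5 began at position -65. The matches of Dnajb11 (bases 7 to 17) and Trib3 (bases 14 to 21) lay past the start.

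**Figure D1:**
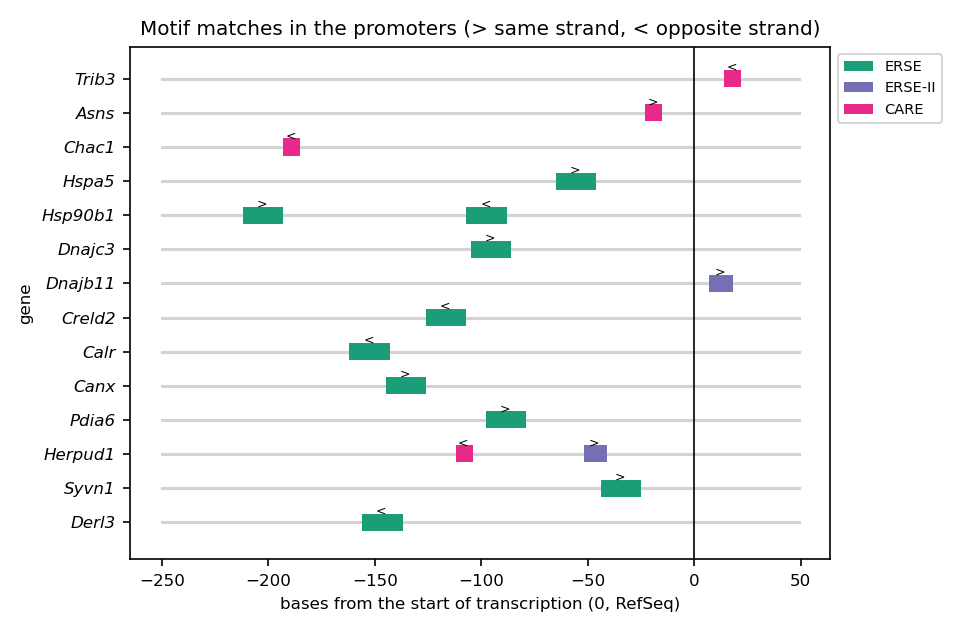
Positions of ERSE, ERSE-II and CARE matches (coloured bars) in the 14 promoters with a match, in bases from the start of transcription at 0, with grey lines for the searched window. The ERSE bars all lie between positions -212 and -26, and 2 matches, in Dnajb11 and Trib3, lie downstream of the start.

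Levels below are log2 of the background-subtracted signal of a gene's brightest probe minus the array's 75th percentile, so 0 is the level of the probe at that percentile, and levels of different genes are not comparable. Differences are Card9-/- minus wt, from a limma fit over all genes with Benjamini-Hochberg adjustment, and their error is the standard error (SE). Of the 18604 genes, 5 (0.0269%) passed an adjusted p of 0.05, and 0 of the 32 did. The smallest adjusted p among the 32 was 0.534, for Sel1l. At an unadjusted p under 0.05, 3 of the 32 were lower in Card9-/- (Sel1l, Asns and Derl1) and 0 were higher, beside 4.59% and 2.63% of all genes. The same 3 genes were the ones whose 4 Card9-/- arrays all lay below the 4 wt arrays, a pattern that 3.69% of all genes had in this direction and 1.53% in the other.

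The mean was lower in Card9-/- for 29 of the 32 genes, beside 56.3% of all genes, but for 20 of 32 with quantile normalization, for 19 of 31 in the authors' series matrix and for 14 of 32 with array weights. The median difference was -0.38, with a range from -1.44 (Asns) to 0.45 (Eif2ak3), and the median over all genes was -0.09. Relative to that the genes' median was -0.30. The 3 genes with a higher mean in Card9-/- were Eif2ak3, Derl3 and Pdia4. The size of the median rests on few arrays: it was -0.17 without wt replicate 3, -0.28 without Card9-/- replicate 4, -0.69 without wt replicate 1 and -0.07 without wt replicates 3 and 4 together. The whole wt group was hybridised on the slide that also carried Card9-/- replicate 4, and that single Card9-/- array decides the median of -1.10 found within this slide and with slide as a block. Card9-/- replicates 1 and 3 lay on slide 2 and replicate 2 on slide 3, each in a scan apart from that of the wt arrays. Slide and scan therefore go largely with genotype.

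**Figure D2:**
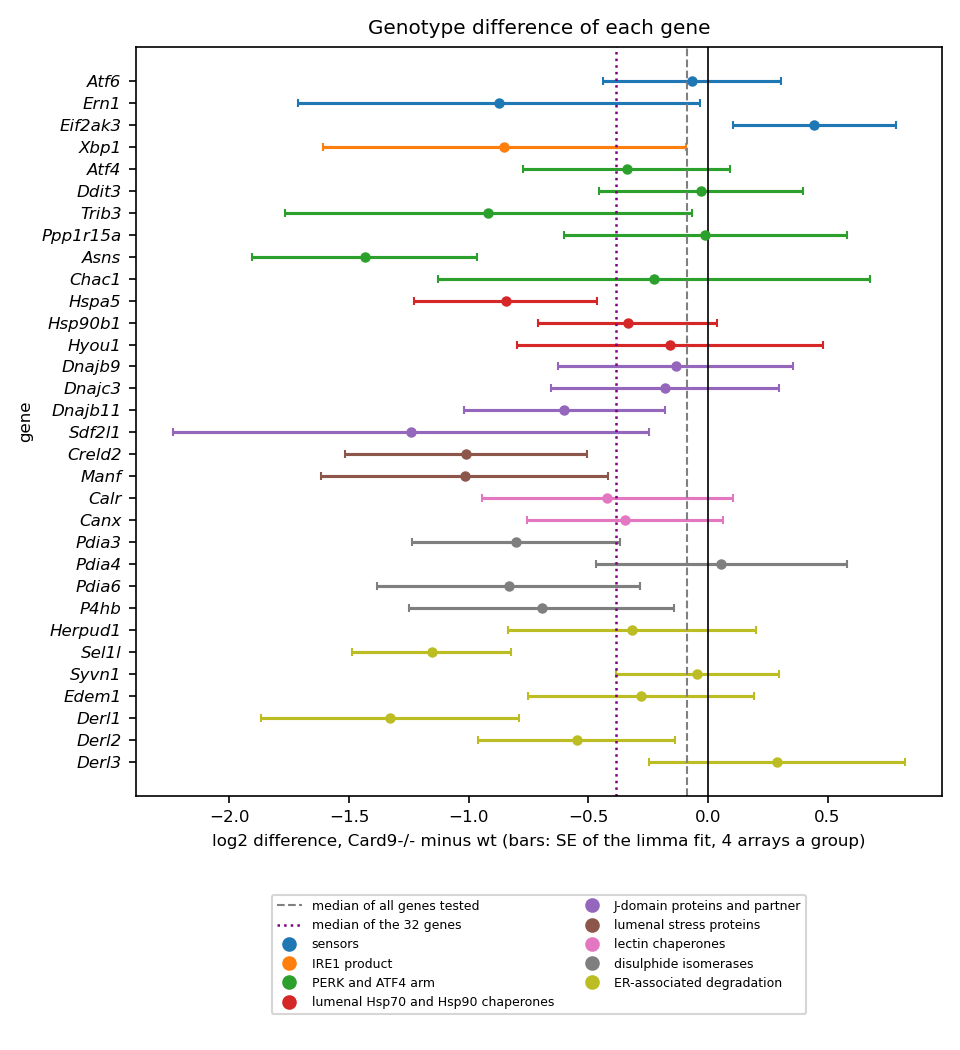
Differences (Card9-/- minus wt, log2) of the 32 genes in order of role, with SE bars from the limma fit of 4 arrays per group, a dashed line at the median of all genes and a dotted line at the median of the 32. Most points lie left of 0, Asns farthest at -1.44, and the bars of many cross 0; 20 of 32 lie left with quantile normalization and 14 of 32 with array weights.

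Arrays of the same group stood far apart for these genes. The median deviation of the 32 genes from their own mean over 8 arrays was -0.26, -0.04, 1.00 and 0.40 over the 4 wt arrays in the order of their replicate numbers, the order used throughout. Over the 4 Card9-/- arrays it was -0.34, -0.19, 0.25 and -0.84. The wt replicate 3 array was thus the high one and the Card9-/- replicate 4 array the low one, while wt replicates 1 and 2 lay within the range of the Card9-/- arrays. Of the 32 genes, 21 had their highest value on wt replicate 3 (27.0% of all genes did) and 20 their lowest on Card9-/- replicate 4 (22.0% of all genes). The range over the 4 wt arrays exceeded 2 log2 units for 14 of the 32 (33.1% of all genes), and was widest for Sdf2l1 (4.86), Chac1 (4.07), Ern1 (3.96), Xbp1 (3.70) and Trib3 (3.63). At the other end, Eif2ak3 and Syvn1 spanned 0.46 and 0.49 in wt.

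**Figure D3:**
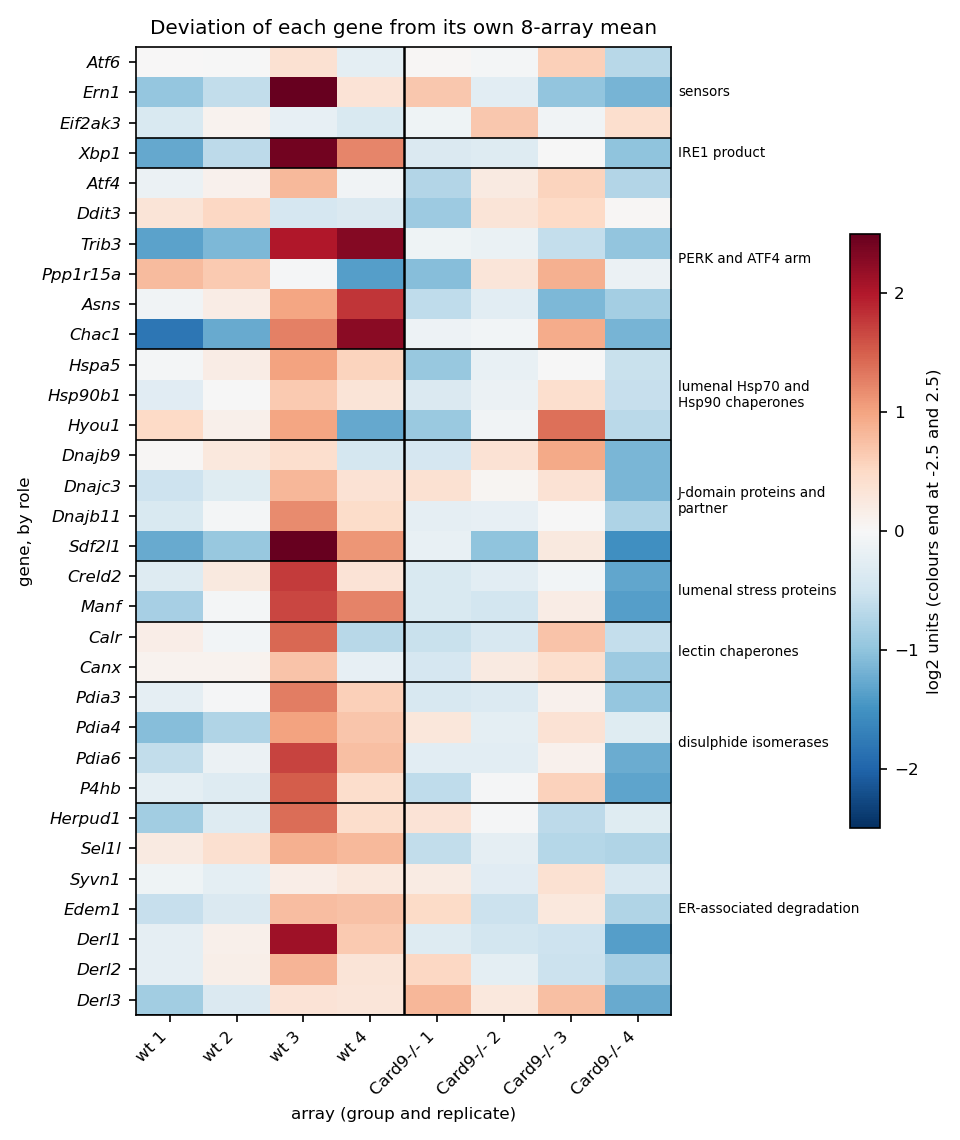
Deviation of each of the 32 genes (rows, by role) from its own mean on the 8 arrays (columns), in log2 units, red above and blue below the mean. The wt replicate 3 column is mostly red and the Card9-/- replicate 4 column mostly blue, with medians of 1.00 and -0.84.

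Markers of some cell types were high on the same arrays as these genes, and markers of others were not. The summed signal of 10 macrophage markers of 11 (Mertk was not measured), in units of the array's 75th percentile, was 53.6, 53.5, 1973 and 711 in wt, and for Card9-/- it was 116, 163, 220 and 290. None of the 10 was below background on all arrays, but Fcgr1 and Msr1 cleared background on just 2 of the 4 wt arrays each. Both wt arrays with high macrophage sums were those with positive medians for the 32 genes, whereas Card9-/- replicate 4 had the largest macrophage sum of its group and the lowest median. On that array Lyz2 (7.46), Cd14 (6.12), Itgam (4.36), Csf1r (3.73) and Msr1 (-1.08) were the highest of the group. Cd68 (2.23) was the lowest of the group there, and Adgre1, Fcgr1, Marco and Mrc1 lay in between. Just 2 of the 10 markers had a higher mean in Card9-/-, and their median difference was -0.91. In bulk RNA fewer cells of a type cannot be told apart from less RNA per cell. For plasma cells, which carry much ER, 5 measured markers of 8 summed to 125, 126, 56.1 and 59.4 in wt and 82.8, 64.7, 88.2 and 41.5 in Card9-/-. The markers differed among themselves: in wt, Irf4 (6.52, 6.18, 4.67 and 4.68) and Prdm1 (3.38, 4.51, 2.49 and 2.49) were higher on replicates 1 and 2. Sdc1 (-3.93, -4.13, 0.75 and -0.08) was higher on replicates 3 and 4, as the 32 genes were, while Mzb1 (4.43, 4.89, 4.47 and 4.70) spanned little and Jchain (-0.90, 0.05, 0.26 and 0.23) was low on replicate 1 alone. Mast cell sums (5 of 6 markers measured) were 29.5, 58.1, 357 and 171 in wt and 13.8, 228, 263 and 39.0 in Card9-/-, and fibroblast sums (4 of 6) were 1.78, 4.56, 22.0 and 15.8 and 3.24, 14.4, 9.67 and 4.18. Both were highest on wt replicate 3, like the 32 genes, and low on Card9-/- replicate 4 beside replicates 2 and 3 of that group. All 10 T cell markers had a higher mean in Card9-/-, with a median difference of 1.58, as had 7 of 7 measured natural killer cell markers, with 2.40. Their sums ran from 54.3 to 118 in wt and from 83.1 to 171 in Card9-/- for T cells, and from 7.46 to 21.5 and from 25.1 to 197 for natural killer cells. Sums of 8 B cell markers ran from 167 to 420 and from 248 to 354, and those of 9 neutrophil markers from 142 to 559 and from 92.7 to 813. The part of these cells in the results was not tested.

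**Figure D4:**
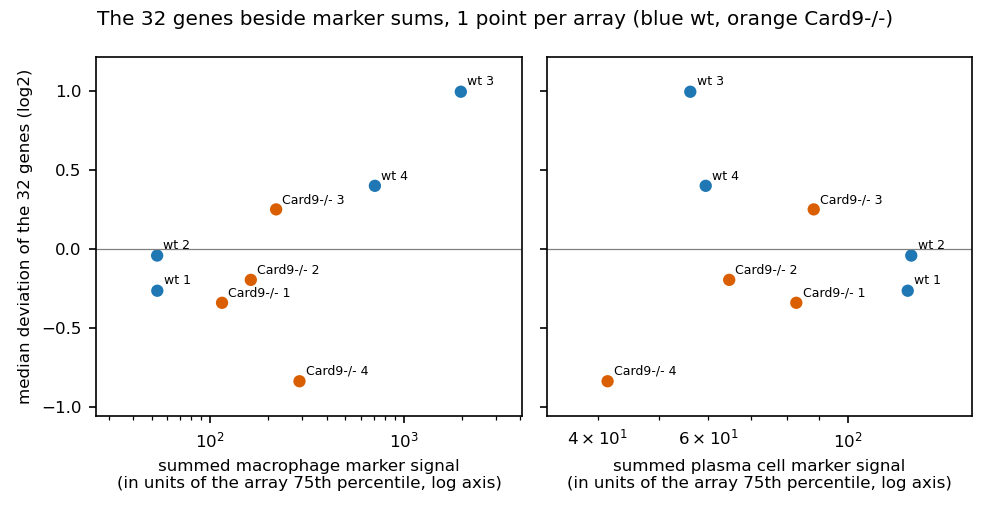
Median deviation of the 32 genes (log2) against the summed signal of macrophage markers (left) and plasma cell markers (right), on log axes in units of the array's 75th percentile, 1 point per array. The wt replicate 3 point, at 1973 and 1.00, is the highest on both axes at left, and Card9-/- replicate 4 is lowest at -0.84.

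Of other facts that touch all genes, each array had 47.8% to 56.5% of its spots well above background and 0 saturated. Card9 itself cleared background on 3 wt arrays and 0 Card9-/- arrays, the exception being the library labelled wt replicate 1, whose level of -6.21 lay below those of all 4 Card9-/- arrays. The arrays of wt replicates 1 and 2 correlated at 0.985 across genes. They correlated at 0.822 and 0.840 with wt replicate 3 and at 0.860 and 0.895 with wt replicate 4. With the 4 Card9-/- arrays their correlations ran from 0.876 to 0.963, the highest being with Card9-/- replicate 2 (0.949 and 0.963). The Y-linked Eif2s3y, Ddx3y and Uty cleared background on all 4 Card9-/- arrays and on 0 wt arrays, and Xist did the reverse, so sex and genotype cannot be told apart.

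The 3 sensors did not move together. Ern1, which encodes IRE1 alpha, stood at -0.79, -0.42, 3.17 and 0.53 in wt and at 0.87, -0.08, -0.80 and -0.98 in Card9-/-. The wt replicate 3 value stood far above the rest and the groups overlapped, with a difference of -0.87 (SE 0.84, adjusted p = 0.872). Eif2ak3, which encodes PERK, was at 1.81, 2.27, 1.99 and 1.81 in wt and 2.09, 2.86, 2.10 and 2.61 in Card9-/-. All but wt replicate 2 lay below the 4 Card9-/- arrays, and at 0.45 (SE 0.34, adjusted p = 0.842, exact permutation p = 0.114) this was the highest difference of the 32. Its other probe gave 0.34, with overlapping groups and its highest value (0.48) on wt replicate 3. Atf6 was at 3.46, 3.43, 3.82 and 3.20 in wt, and in Card9-/- at 3.47, 3.39, 4.03 and 2.75. Its Card9-/- values enclosed all the wt values, and the difference was -0.06 (SE 0.37, adjusted p = 0.988), or 0.21 with quantile normalization. A second Atf6 probe varied more, at -0.52, -0.52, -3.28 and -2.98 in wt, where replicates 3 and 4 were low, and gave -0.12.

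Xbp1, whose spliced form encodes the transcription factor of the IRE1 arm, had 3.00, 3.63, 6.70 and 5.51 in wt and 3.92, 3.97, 4.28 and 3.28 in Card9-/-. Its wt values fell on either side of the Card9-/- values, with wt replicates 3 and 4 above all of them and wt replicates 1 and 2 among or below them. The difference of -0.85 (SE 0.76, adjusted p = 0.864) was smaller than the wt SD of 1.70, and became 0.54 without wt replicates 3 and 4. Other Xbp1 probes gave -0.75 and -0.77. The probes were not assigned to the spliced or unspliced form.

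In the PERK and ATF4 arm, 6 of 6 genes had a lower mean in Card9-/- but 3 of 6 with quantile normalization, where Atf4, Ddit3 and Ppp1r15a were at 0.17, 0.01 and 0.64. Asns, the asparagine synthetase that ATF4 drives under amino acid shortage, was at 0.74, 1.00, 1.81 and 2.61 in wt and 0.20, 0.56, -0.31 and -0.03 in Card9-/-. Every Card9-/- array lay below every wt array, and the difference was -1.44 (SE 0.47), a 2.70-fold higher wt level, with an adjusted p of 0.561 and an exact permutation p of 0.029, the smallest that 8 arrays allow. A second Asns probe cleared background on 4 wt and 0 Card9-/- arrays, so it measures no exact difference. Trib3, a pseudokinase induced by ATF4 and CHOP, was at -1.64, -1.43, 1.70 and 1.99 in wt and -0.40, -0.46, -0.89 and -1.28 in Card9-/-. Its wt arrays split into a pair below and a pair above all Card9-/- arrays, and the difference was -0.92 (SE 0.85, adjusted p = 0.866). Chac1, an enzyme that breaks down glutathione, split in the same manner, with wt values of -1.87, -1.33, 1.19 and 2.20 beside -0.20, -0.14, 0.86 and -1.24 in Card9-/-, and a difference of -0.23.

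Other genes of that arm were not highest on wt replicate 4. Atf4 itself was at 7.32, 7.58, 8.29 and 7.39 in wt and 6.74, 7.71, 8.04 and 6.73 in Card9-/-. The groups overlapped and differed by -0.34 (SE 0.43, adjusted p = 0.905). A second Atf4 probe gave -0.27, with wt replicate 3 the lowest wt array (2.03) rather than the highest. ATF4 is known to be controlled mainly in translation, which arrays do not measure. Ddit3, which encodes the death-linked factor CHOP, stood at 1.12, 1.32, 0.39 and 0.45 in wt and -0.10, 1.13, 1.30 and 0.83 in Card9-/-. On this probe wt replicates 3 and 4 were the low wt arrays, but a second Ddit3 probe, above background on every array, had 0.36, 0.37, 0.79 and 1.35 in wt, with replicates 3 and 4 high. The probes agreed only in a difference near 0, at -0.03 (SE 0.43, adjusted p = 0.996) and -0.09. Ppp1r15a, the phosphatase subunit GADD34 that restores translation, was lower on wt replicates 3 and 4 (6.51 and 5.16) than on 1 and 2 (7.34 and 7.19), with a difference of -0.01.

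The means of the lumenal Hsp70 and Hsp90 chaperones were lower in Card9-/-, but Hsp90b1 turned to 0.17 with quantile normalization and Hyou1 to 0.23 with normexp background correction. Hspa5, which encodes BiP, the Hsp70 of the ER and the gene most used as a gauge of this response, was at 6.57, 6.80, 7.63 and 7.18 in wt and 5.67, 6.43, 6.62 and 6.07 in Card9-/-. The groups touched only through Card9-/- replicate 3, which lay above wt replicate 1. The difference was -0.85 (SE 0.38, adjusted p = 0.696, exact permutation p = 0.057), a 1.80-fold higher wt mean, and it kept its sign in all 21 alternative settings, from -1.21 to -0.26. Other probes of Hspa5 gave -0.79 and -1.11. Hsp90b1, the lumenal Hsp90 (GRP94), was at 4.99, 5.25, 5.92 and 5.60 in wt and 4.91, 5.13, 5.69 and 4.69 in Card9-/-. Its groups overlapped, with a difference of -0.34 (SE 0.37, adjusted p = 0.892). Hyou1, a nucleotide exchange factor for BiP, had a difference of -0.16 and values from -3.34 to -0.68.

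Among the J-domain proteins, which bring substrates to BiP and stimulate its ATPase, Dnajb11 had a difference of -0.60, from 2.20, 2.53, 3.76 and 3.05 in wt and 2.37, 2.39, 2.57 and 1.81 in Card9-/-. Wt replicates 1 and 2 lay among the Card9-/- arrays. Dnajc3 (-0.18), the inhibitor of PERK p58IPK, and Dnajb9 (-0.13), the IRE1 repressor ERdj4, had smaller differences than their SEs of 0.48 and 0.49, and Dnajb9 turned to 0.03 with quantile normalization. Sdf2l1, a partner of Dnajb11 that strongly follows ER stress, had the widest spread of all, with wt at -0.81, -0.50, 4.05 and 1.55 and Card9-/- at 0.27, -0.55, 0.69 and -1.08. Only wt replicates 3 and 4 exceeded the Card9-/- range, and the difference of -1.24 (SE 1.00, adjusted p = 0.850) became 0.49 without those arrays.

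Creld2 and Manf, small stress-induced proteins of the lumen, gave differences of -1.01 (SE 0.51, adjusted p = 0.736) and -1.02 (SE 0.60, adjusted p = 0.786). Creld2 was at 3.22, 3.79, 5.29 and 3.89 in wt and 3.16, 3.27, 3.47 and 2.24 in Card9-/-. Manf was at 1.24, 2.02, 3.73 and 3.30 in wt and 1.68, 1.60, 2.25 and 0.70 in Card9-/-. For Creld2 the groups overlapped through wt replicate 1 alone, and for Manf through wt replicates 1 and 2. A second Manf probe gave -1.60.

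The lectin chaperones, which hold glycoproteins while they fold, were highest in each group on replicate 3. Calr (calreticulin) was at 4.55, 4.31, 5.81 and 3.68 in wt and 3.82, 3.98, 5.09 and 3.78 in Card9-/-. Canx (calnexin) was at 4.91, 4.89, 5.53 and 4.61 in wt and 4.39, 5.03, 5.23 and 3.90 in Card9-/-. Each overlapped widely between groups, with differences of -0.42 (SE 0.52) and -0.35 (SE 0.41). Canx turned to 0.09 with quantile normalization.

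Of the disulphide isomerases, which form and rearrange disulphide bonds, 3 of 4 had a lower mean in Card9-/-, and 4 of 4 with median scaling or normexp, where Pdia4 was at -0.12 and -0.06. With array weights 2 of 4 were lower and their median difference was 0.11. Without wt replicates 3 and 4 that median was -0.05. Pdia3, the partner of the lectins, was at 2.77, 2.96, 4.27 and 3.58 in wt and 2.59, 2.64, 3.10 and 2.03 in Card9-/-. Only Card9-/- replicate 3 reached into the wt range, and the difference was -0.80 (SE 0.43, adjusted p = 0.760). Pdia6, known to bind BiP, was at 4.62, 5.09, 6.92 and 6.0 in wt and 4.97, 4.97, 5.35 and 4.00 in Card9-/-, with a difference of -0.83 (SE 0.55) and wt replicate 1 below 3 Card9-/- arrays. P4hb, the founding isomerase PDI, gave -0.70 (SE 0.55), and Pdia4 gave 0.06 (SE 0.52), within a wt range of 2.09.

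ERAD genes held 2 of the 3 genes whose groups did not overlap on the probe used, a pattern that 3.69% of all genes had in this direction. Sel1l, the adaptor of the ubiquitin ligase that retrieves misfolded protein, was at 2.91, 3.09, 3.59 and 3.50 in wt and 2.08, 2.46, 1.98 and 1.95 in Card9-/-. The groups were apart by a gap larger than the wt and Card9-/- SDs of 0.33 and 0.24, with a difference of -1.16 (SE 0.33, adjusted p = 0.534, exact permutation p = 0.029), a 2.23-fold higher wt mean. However, the Sel1l probe used lies at chr12:93045073-93045132 (mm9), and its other probes, also well above background on every array, gave 0.10 and -0.64. The groups overlapped on the probe with 0.10. On the probe with -0.64 they did not, at -2.42, -2.12, -2.46 and -2.15 in wt and -2.95, -2.69, -2.99 and -3.09 in Card9-/-. With the mean of all probes, the Sel1l difference was -0.57. Derl1, a channel-like protein of the retrotranslocation complex, was at 2.27, 2.61, 4.61 and 3.14 in wt and 2.18, 2.04, 1.98 and 1.11 in Card9-/-. Wt replicate 1 lay just above Card9-/- replicate 1, and the difference was -1.33 (SE 0.54, adjusted p = 0.636, exact permutation p = 0.029). A second Derl1 probe gave -0.06, with overlapping groups.

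The partners of Sel1l and Derl1 did not share that separation. Syvn1, the ligase Hrd1 that Sel1l supports, was among the steadiest genes, at 5.27, 5.15, 5.55 and 5.64 in wt and 5.59, 5.09, 5.76 and 4.99 in Card9-/-, with a difference of -0.04 (SE 0.34) that became 0.49 with quantile normalization. Herpud1 (-0.32, SE 0.52), which gathers the complex, and Edem1 (-0.28, SE 0.47), which trims the mannose of misfolded glycoproteins, overlapped between groups, and Herpud1 was at 0.08 with quantile normalization and 0.06 on another probe. Derl2 and Derl3, relatives of Derl1, gave -0.55 (SE 0.41) and 0.29 (SE 0.54).

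**Figure D5:**
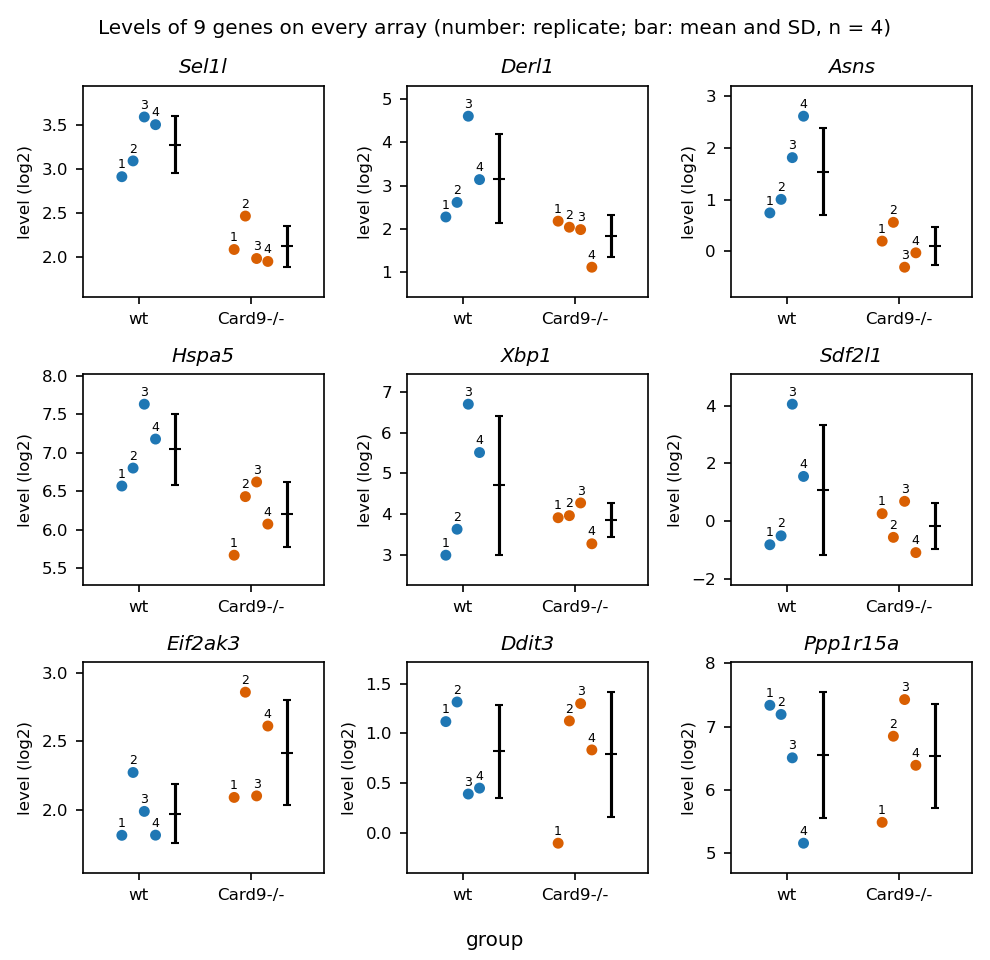
Levels (log2, relative to the array's 75th percentile) of 9 of the genes on every array, with the replicate number at each point and mean and SD (n = 4) as bars. Sel1l, Derl1 and Asns do not overlap between groups on the probes shown, but another probe of Sel1l (0.10) and of Derl1 (-0.06) does. The remaining Sel1l probe (-0.64) does not. Xbp1 and Sdf2l1 are high on wt replicates 3 and 4 alone, and the probe of Ddit3 shown is low there, unlike its second probe.

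Read against the promoters, the genes with a CARE and no ERSE or ERSE-II (Asns, Chac1 and Trib3) had a median deviation of 2.26 on wt replicate 4 and 1.26 on wt replicate 3, and each of the 3 was highest on wt replicate 4. Herpud1, with a CARE and an ERSE-II, was highest on wt replicate 3. In the amino acid list below, Atf3, Cebpb, Nupr1, Gdf15, Sesn2, Slc3a2, Slc7a1, Phgdh, Aars, Gars, Sars and Wars were highest on wt replicate 3. Ddit4, Slc7a11, Psat1, Mthfd2 and Cars were highest on wt replicate 4, and the rest on other arrays. The 11 genes with ERSE or ERSE-II had a median of 0.35 on wt replicate 4 and 1.01 on wt replicate 3, and 9 of 11 were highest on wt replicate 3. The 14 genes with a promoter in the table and no motif were alike, with medians of 0.39 and 0.87 and 10 of 14 highest on wt replicate 3. The median difference between genotypes was -0.35 for the 11 genes with ERSE or ERSE-II, beside -0.92 for the 3 CARE genes and -0.44 for the 14 genes without a motif. Only exact matches were counted, so a gene classed as without a motif may hold a near match. Ddit3 does, with CGTGC, 9 bases, ATTGG, close to a reversed ERSE. The classes rest on few genes and were not compared by a test.

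Of 145 genes in 5 further lists (amino acid response, translocation into the ER, folding, ERAD and stress signalling), 132 were measured. The mean was lower in Card9-/- for 106 and higher for 26 (79 and 53 with quantile normalization, 70 and 62 with array weights), beside 56.3% of all genes lower; 0 passed the adjusted p, and 8 (6.06%) were lower at an unadjusted p under 0.05, near the 4.59% of all genes, with 0 higher. The folding list had a median of -0.49 (23 of 26 lower), the amino acid list -0.36 (24 of 29), stress signalling -0.34 (19 of 27), translocation -0.26 (21 of 24) and ERAD -0.15 (19 of 26), beside the median of all genes of -0.09. With quantile normalization the ERAD list turned to 0.03, with 13 of 26 lower, and the other 4 stayed below 0. The folding list turned to 0.18 with array weights (9 of 26 lower) and to 0.14 without wt replicates 3 and 4 (10 of 26). The genes of smallest p were Ganab (-1.34), the glucosidase II subunit, and Hspa13 (-0.94), an Hsp70 relative, for folding. For the amino acid list they were Atf5 (-1.0), a transcription factor, and Cars (-0.92), the cysteinyl-tRNA synthetase. For translocation they were Sec61a1 (-1.32), the channel itself, and Ssr2 (-0.88), a translocon-associated subunit whose sign turned to 0.21 in the authors' series matrix. Eif2s1 (-1.07), the translation factor that PERK phosphorylates, and Bbc3 (-0.95), a death-promoting BCL2 relative, led stress signalling. For ERAD, Ube2g2 (-0.85), a ubiquitin-conjugating enzyme, is named.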

How the data were processed

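Values in the scanner files are, per the file headers, intensity readings that Agilent Feature Extraction 10.7.1.1 took from 1-colour arrays (mm9) and corrected for background. The series matrix holds log2 values deposited by the authors, of unstated processing, with a median of 4.48 in every column. It has 56745 rows, of which 49670 aligned with the scanner probes and were used, as an alternative only. The closest scanner file had the column's genotype for all 8 columns but its replicate number for only 2, so the deposited sources number replicates differently. Numbers here are those of the scanner files.

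For each array, log2 of the processed intensity minus its 75th percentile over non-control spots was taken. Spots marked as outliers were left out, and a probe needed 3 usable arrays per group. Probes were kept if 3 or more of the 4 arrays of 1 genotype had them well above background, repeated spots were averaged, and the probe with the highest mean stood for a gene. Genotypes were compared with lmFit and eBayes in limma 3.58.1 (R 4.3.3), with Benjamini-Hochberg adjustment over all genes at 0.05, tested on simulated data. Single genes were also given an exact two-sided permutation test over 70 assignments, whose smallest p is 0.0286. The number of arrays limits the precision. Probes were named by accession, current symbol or synonym in RefSeq tables, or as in the files.

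The 32 genes, the further lists and the tests were chosen with earlier results of these data known. The rule was to name every one of the 32, with values on every array for the 7 genes Hspa5, Xbp1, Ern1, Eif2ak3, Atf6, Atf4 and Ddit3, the 2 genes of smallest p in each role and those whose groups did not overlap, and 2 genes per further list, of which 1 is not reported here. Array values of Chac1, Ppp1r15a and Syvn1 were added after they were seen. Summed markers of mesothelial cells (2 of 6 in the sum) ran from 0.0909 to 1.89 over the 8 arrays. Those of dendritic cells (5 of 6) ran from 130 to 242. The mesothelial marker Wt1 had a measured probe but was left out of the sum, since its brightest probe failed the filter. Alternatives covered background correction, scaling, the filter, probe choice, the series matrix, slide, replicate block, array weights and leaving out arrays. Replicate numbers do not pair the arrays: deviations of same-numbered arrays correlated at -0.13, 0.25, -0.12 and -0.28.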

Additional observations from a re-analysis of the deposited data

Results flagged for a closer look

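Calr in Card9-/- was the single gene and group of 64 checked (32 genes in each genotype) with an array far from the other 3. Its level on Card9-/- replicate 3 was 5.09, and the other 3 arrays of the group lay between 3.78 and 3.98, a gap of 0.847 of the whole range. Chance alone gives about 1 such flag in 20 groups.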

How the results depend on the processing

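Over 21 alternatives, Hspa5, Calr, Pdia6, Dnajb11, Sel1l, Derl1, Derl2, Creld2, Manf and Asns kept a lower mean in Card9-/-. For some of them the sign was kept only barely. The difference came as near to 0 as -0.0067 for Pdia6, -0.014 for Calr, -0.075 for Manf and -0.080 for Dnajb11. For the others the weakest value was -0.23 (Derl2), -0.26 (Hspa5), -0.42 (Creld2), -0.57 (Sel1l), -0.59 (Derl1) and -0.77 (Asns). Pdia3 did so in the 20 that measured it, and Eif2ak3 kept a higher mean in all 21. Other single probes gave 0.10 and -0.64 for Sel1l and -0.06 for Derl1. The median of the 32 genes lay between -0.69 and -0.17 when each array was left out in turn, and between 5 and 6 genes of all then passed the adjusted p. It was -1.10 with slide as a block and within slide 1 (0 genes passed in each), 0.056 with array weights (586 genes) and -0.98 without wt replicates 1 and 2 (430 genes, with Trib3 the 1 of the 32 to pass, at -2.61, adjusted p = 0.037). The fit with a replicate block, where numbers do not pair the arrays, gave 3 genes. With array weights Atf5 passed (-1.12, adjusted p = 0.041). The median of all genes was -0.09, and -0.26 with median scaling, where that of the 32 was -0.56, or -0.30 relative to it. The cause of the changes was not tested.

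Signs turned as follows. With array weights, Hsp90b1 was at 0.024, Canx 0.021, P4hb 0.22, Atf4 0.089, Atf6 0.11, Xbp1 0.43, Ern1 0.21, Trib3 0.69, Dnajb9 0.14, Dnajc3 0.43, Herpud1 0.25, Syvn1 0.14, Edem1 0.18, Sdf2l1 0.33 and Chac1 1.39. With quantile normalization, Hsp90b1 was at 0.17, Canx 0.093, Atf4 0.17, Atf6 0.21, Ddit3 0.013, Ppp1r15a 0.64, Dnajb9 0.035, Herpud1 0.077 and Syvn1 0.49. In the series matrix, Hsp90b1 was at 0.11, Canx 0.059, Atf4 0.16, Atf6 0.20, Ddit3 0.0074, Ppp1r15a 0.53, Dnajb9 0.032, Herpud1 0.051, Syvn1 0.40 and Ssr2 0.21. With slide as a block and within slide 1, Pdia4 was at -0.27, Ddit3 0.015 and Derl3 -1.12. Without wt replicates 1 and 2, Pdia4 was at -0.83, Ddit3 0.37, Ppp1r15a 0.71, Derl3 -0.18 and Hyou1 0.072. Without wt replicates 3 and 4, Xbp1 was at 0.54, Ern1 0.35, Trib3 0.77, Dnajc3 0.32, Herpud1 0.45, Syvn1 0.15, Edem1 0.33, Sdf2l1 0.49 and Chac1 1.42. With wt replicates 1 and 2 averaged, Pdia4 was at -0.24, Ddit3 0.10 and Ppp1r15a 0.23. Pdia4 was at -0.12 with median scaling and -0.057 with normexp, which put Hyou1 at 0.23. Leaving out 1 array at a time gave ranges from -0.27 to 0.15 for Atf6, from -0.87 to 0.49 for Chac1, from -0.20 to 0.27 for Ddit3, from -0.47 to 0.23 for Dnajb9, from -0.38 to 0.17 for Dnajc3, from -0.66 to 0.10 for Herpud1, from -0.64 to 0.14 for Hyou1, from -0.29 to 0.40 for Pdia4, from -0.47 to 0.34 for Ppp1r15a and from -0.18 to 0.079 for Syvn1.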
